A study of Homo sapiens with 288 samples.

Results

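Sphingosine-1-phosphate (S1P), adrenomedullin and apelin are secreted signals that act on the endothelium through G protein-coupled receptors. The 9 genes described here were chosen by symbol from the 17492 genes in the deposited tables, and they are S1PR1, S1PR3, CALCRL, RAMP2, RAMP3, ADM, APLN, APLNR and GNG11. All 9 symbols were found. The rule is the list of symbols, which was drawn up with earlier results of these data known. Of these, 8 genes had counts, and RAMP3 was listed at 0 in all 288 libraries.

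The libraries came from 96 single cells derived from the H1 human embryonic stem cell line and isolated with the Fluidigm C1, in which the RNA of each captured cell is turned into full-length cDNA in its own chamber. Endothelial cells (EC, 45 cells) were made by seeding H1 in E8 medium with BMP4 at 5 ng/ml and Activin A at 25 ng/ml for 2 days, then by giving VEGF and WNT over 3 days. Trophoblast-like cells (TB, 51 cells) were made in E7, which is E8 without FGF2, with BMP4 at 50 ng/ml and the inhibitor SB431542. The stored cDNA of each cell was brought to the same input amount and sequenced in 3 experiments, which were pooled at equal volume (EQ), pooled in variable volumes (EQ-Vary), or prepared again as in EQ and sequenced less deeply (EQ-75%). The 3 experiments are thus new libraries of the same cDNA and not new cells, and the labels name no separate cultures, so each cell type in each experiment is 1 sample and no test was made. SDs are between cells, and where a result is given as 3 values they are in the order EQ, EQ-Vary, EQ-75%.

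S1P circulates in plasma and holds endothelial junctions together, mainly through the receptor S1PR1, while S1PR3 is shared with smooth muscle and other cells. Adrenomedullin, the peptide made from ADM, widens vessels and stabilizes them. Its receptor is CALCRL in complex with a small partner protein of the RAMP family, since CALCRL with RAMP2 or RAMP3 binds adrenomedullin and CALCRL with RAMP1 binds calcitonin gene-related peptide. Apelin, from APLN, is typical of sprouting endothelium and acts on APLNR. GNG11 encodes a gamma subunit of the heterotrimeric G proteins to which such receptors couple.

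Sequence upstream of the annotated start is shown for 4 of the genes, those with an available window free of annotated exons. They are GNG11 and APLN (found in EC), S1PR3 (found in both cell types) and RAMP3 (at 0 in both). The RefSeq windows (GRCh38.p14) hold the 250 bases before the start and were printed where no annotated exon lies over them, 5′ to 3′ on the strand of the gene. Windows of S1PR1, CALCRL and ADM, and another S1PR3 window at a start further downstream (chr9:88991218-88991467), overlapped annotated exons and are not shown. No window was available for RAMP2 and APLNR. The capitals mark the core letters of ETS-type sites, searched as CGGAAG or AGGAAG on both strands. The windows are chr7:93921485-93921734 for GNG11 (plus strand), chrX:129654957-129655206 for APLN (minus strand), chr9:88990613-88990862 for S1PR3 (plus strand) and chr7:45157541-45157790 for RAMP3 (plus strand).
GNG11: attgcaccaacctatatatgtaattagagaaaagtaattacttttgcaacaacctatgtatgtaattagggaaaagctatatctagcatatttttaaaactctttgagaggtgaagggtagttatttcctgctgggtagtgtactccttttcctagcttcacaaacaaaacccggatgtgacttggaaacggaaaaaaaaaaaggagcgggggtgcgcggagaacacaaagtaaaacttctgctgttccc
APLN: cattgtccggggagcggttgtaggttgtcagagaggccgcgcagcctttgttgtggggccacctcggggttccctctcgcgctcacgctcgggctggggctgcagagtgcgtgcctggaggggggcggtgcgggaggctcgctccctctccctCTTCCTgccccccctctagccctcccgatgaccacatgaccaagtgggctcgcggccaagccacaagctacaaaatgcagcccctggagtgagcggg
S1PR3: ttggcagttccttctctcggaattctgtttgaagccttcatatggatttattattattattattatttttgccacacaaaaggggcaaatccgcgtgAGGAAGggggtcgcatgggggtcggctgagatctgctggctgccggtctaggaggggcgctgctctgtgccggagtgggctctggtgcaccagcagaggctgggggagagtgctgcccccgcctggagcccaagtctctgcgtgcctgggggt
RAMP3: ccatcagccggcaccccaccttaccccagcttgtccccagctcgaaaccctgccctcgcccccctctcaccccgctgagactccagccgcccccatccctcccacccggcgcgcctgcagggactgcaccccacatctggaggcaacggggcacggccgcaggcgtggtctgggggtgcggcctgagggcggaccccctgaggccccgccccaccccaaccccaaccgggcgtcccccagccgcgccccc
S1PR3 held AGGAAG once, from 153 to 148 bases before the start, and APLN held it once on the opposite strand, from 97 to 92 bases before the start. GNG11 and RAMP3 held neither form. The same letters occurred in 40.8% of 35116 RefSeq windows of this kind, so a match was common. The core of the hypoxia response element, ACGTG on either strand, occurred in 18.5% of those windows and in none of the 4. The windows differed in base composition, with 38.4% G and C in GNG11, 57.2% in S1PR3, 67.6% in APLN and 75.6% in RAMP3.

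Cells were kept if the log10 total count was at least 5.4 and the 50 most abundant genes took at most 31% of the counts, which left 38 EC and 48 TB cells in EQ, 38 and 46 in EQ-Vary, and 39 and 50 in EQ-75%. The total counts of the passing cells in EQ ran from 471578 to 3966798 in EC and from 365536 to 3479243 in TB. The labels were checked against markers. Of 15 endothelial markers, 14 were at least 4-fold higher in EC (ROBO4 was not). Of 13 trophoblast markers, 9 were at least 4-fold higher in TB (GATA3, GATA2, TFAP2A and CGA were not). A single passing cell, EC 15, went against its label, with a summed endothelial level of 606 CPM (counts scaled to 1000000 per cell) against a median of 5871 over EC cells, POU5F1 at 384 CPM, and the highest summed trophoblast level of any EC cell (3974 CPM). That trophoblast sum included KRT8 at 1696 CPM and KRT18 at 1254 CPM, while GATA3 was at 3.99 CPM and KRT7 at 0. EC 15 also had the highest summed pluripotency level of any EC cell, at 2756 CPM against a median of 427 CPM. Results that rest on EC 15 are given with and without it.

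In EQ, 6 of the 8 genes with counts were at least 4-fold higher in EC than in TB by mean CPM, namely S1PR1, CALCRL, RAMP2, APLN, APLNR and GNG11. S1PR3 and ADM were within 4-fold by mean CPM, although the medians of ADM differed more. Over all 12751 genes with a mean of at least 1 CPM in EC or TB, 10.8% were at least 4-fold higher in EC and 16% at least 4-fold higher in TB, and none of the 8 genes was in the second group. The median log2 ratio of EC to TB was 8.14 over the 8 genes and -0.07 over all genes tested. The count of 6 was the same with all cells, without EC 15, and with scran or TMM scaling in place of the total count.

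**Figure D1:**
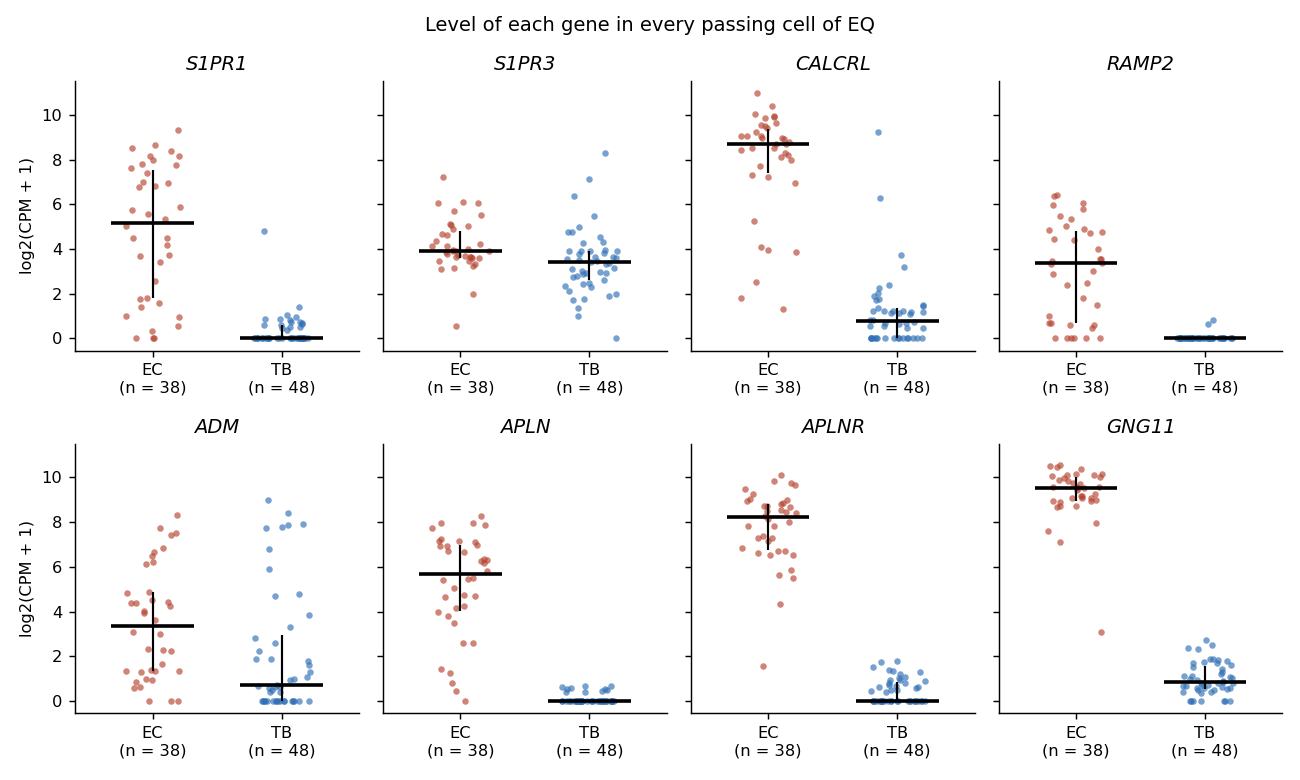
Level of 8 genes in every passing cell of EQ, as log2(CPM + 1), in 38 EC (red) and 48 TB cells (blue). Each point is 1 cell, the thick line is the median and the thin line spans the quartiles. GNG11, APLNR and APLN separate EC from TB almost completely, whereas S1PR3 and ADM overlap.

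Among the receptors, APLNR (chr11:57233577-57237250, minus strand, a single annotated exon) was detected in 38 of 38 EC cells. Its EC level ran from 1.99 CPM in EC 15 through a median of 299 CPM to 1121 CPM, with a mean of 338 ± 274 CPM (SD, n = 38 cells). In TB the median was 0 and the highest cell had 2.44 CPM. Thus 37 of 38 EC cells lay above every TB cell, and EC 15 was the exception. The mean CPM was 692-fold higher in EC, with a 95% interval of 522 to 939. Intervals throughout cover counting error only. With the cells outside the limits put back the ratio was 111, since TB 48, with 1 APLNR count in a total of 8572, then entered the TB mean at 117 CPM.

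CALCRL (chr2:187341964-187448460, minus strand) was detected in 38 of 38 EC cells, at a mean of 477 ± 421 CPM (SD, n = 38 cells). EC cells ran from 1.52 through a median of 411 to 1991 CPM. The EC values fell into a large high group and a small low group, since 31 cells had at least 100 CPM, 1 cell had 37.4 CPM and 6 cells had under 20 CPM. The 6 low cells were EC 24, EC 15, EC 38, EC 17, EC 7 and EC 27, and they ranged from 1.52 to 16.3 CPM. All 6 were low again in EQ-Vary (1.33 to 16.3 CPM) and in EQ-75% (0.988 to 17.9 CPM). Apart from EC 15, the low cells carried the endothelial receptor KDR at 881 to 2235 CPM and the adhesion molecule PECAM1 at 502.8 to 1022 CPM, well above EC 15 (51.3 and 99.6 CPM). Their CDH5 (VE-cadherin) ran from 39.03 CPM in EC 27, close to the 34.4 CPM of EC 15, to 342 CPM in EC 38, beside a median of 332 CPM over EC cells.

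In TB, CALCRL had a median of 0.713 CPM and was detected in 32 of 48 cells, but the mean of 15.4 CPM rested on 1 cell. TB 14 had 601 CPM, which was 81.2% of the CPM summed over TB cells. The same cell had 591 CPM in EQ-Vary and 656 CPM in EQ-75%. Its next highest member was S1PR3 at 11.3 CPM, and CDH5 was at 0.708 CPM and KDR at 1.77 CPM. TB 14 carried GATA3, a trophoblast transcription factor, at 413 CPM. GATA3 was within 4-fold between the types, with means of 236 CPM in TB and 120 CPM in EC. In TB 14, KRT8 was at 640 CPM, KRT18 at 344 CPM and KRT7 at 0, beside TB medians of 1068, 1590 and 6.94 CPM. The EC to TB ratio of CALCRL was 30.9 with TB 14 and 161 without it. Only 11 EC cells exceeded TB 14.

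S1PR1 (chr1:101236865-101243713, plus strand) varied most widely among the EC receptors relative to its mean, at 110 ± 147 CPM (SD, n = 38 cells). EC cells ran from 0 through a median of 35.5 to 629 CPM, with 12 cells under 5 CPM and 15 cells over 100 CPM. EC 15, low in the other endothelial members, had 127 CPM. In TB the median was 0, and 1 cell, TB 16, had 27.3 CPM, or 70.9% of the summed TB level. The ratio of EC to TB was 137 with TB 16 and 460 without it. S1PR1 was above the highest TB cell in 20 of 38 EC cells.

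S1PR3 (chr9:88990863-89005155, plus strand) did not follow S1PR1. Detection was near complete in both types, with 38 of 38 EC and 47 of 48 TB cells, and the mean was 24.3 ± 27.01 CPM in EC and 20.97 ± 48.5 CPM in TB. EC cells ran from 0.489 through a median of 14.2 to 150 CPM, and TB cells from 0 through 9.60 to 312 CPM. In EC, 19 of 38 cells sat in a narrow band of 10 to 20 CPM. The ratio was 1.16, and no EC cell lay above the highest TB cell, TB 11, which had 312, 330 and 313 CPM in the 3 experiments.

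Of the CALCRL partners, RAMP2 (chr17:42758447-42763041, plus strand) was found almost only in EC. It was detected in 32 of 38 EC cells (84.2%, exact Clopper-Pearson interval 68.7 to 94.0%) and in 2 of 48 TB cells (4.17%, interval 0.509 to 14.3%). EC levels ran from 0 through a median of 9.24 to 83.6 CPM, with a mean of 18.6 ± 23.7 CPM (SD, n = 38 cells). The 48 TB cells held 2 RAMP2 counts in all, and the ratio of 667 therefore had a wide counting interval of 184 to 5516. RAMP3 (chr7:45157791-45186302, plus strand) had no count in any cell. The 3 counts that a count of 0 allows correspond to 0.0383 CPM over the EC cells and 0.0311 CPM over the TB cells of EQ, and to 7.89% of EC and 6.25% of TB cells.

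The 2 ligand genes behaved differently. APLN (chrX:129645259-129654956, minus strand) was detected in 37 of 38 EC cells and ran from 0 through a median of 50.1 to 306 CPM, with a mean of 81.0 ± 82.3 CPM. The TB cells held 10 APLN counts in all and none exceeded 0.6003 CPM, so that 36 of 38 EC cells lay above every TB cell. The ratio was 847 (interval 460 to 1767).

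ADM (chr11:10305073-10307397, plus strand) had nearly equal means, 41.5 ± 72.3 CPM in EC and 42.5 ± 105 CPM in TB, and a ratio of 0.976, or 1.002 without EC 15. The medians differed more, at 9.38 CPM in EC and 0.625 CPM in TB, because the TB mean came from few cells. In TB, 26 of 48 cells were under 1 CPM, 7 cells were over 100 CPM, and the 5 highest cells held 75.9% of the summed level. In EC the spread was similar in kind, with 8 cells under 1 CPM, 6 over 100 CPM and 63.9% of the level in the 5 highest cells. The highest TB cell, TB 47, had 514, 496 and 501 CPM in the 3 experiments. TB 47 held 25.2% of the summed TB level in EQ, and the ratio was 1.28 without it.

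GNG11 (chr7:93921735-93928610, plus strand) was the most even of the 8 genes over EC cells. It ran from 7.47 CPM in EC 15 through a median of 730 to 1488 CPM, with a mean of 750 ± 369 CPM (SD, n = 38 cells). The coefficient of variation over EC cells was 0.491, against 0.810 for APLNR and 1.74 for ADM, the ends of the range of the other 7 genes. The TB cells had at most 5.66 CPM, and all 38 EC cells lay above them, including EC 15. GNG11 was still detected in 41 of 48 TB cells, at a median of 0.796 CPM. With every cell thinned to 250000 counts this share was 26.3% in TB and 99.6% in EC.

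Detection of the EC genes in TB, where counts were low, was compared between 2 libraries of the same cells. Of the 47 TB cells passing in both EQ and EQ-75%, GNG11 was detected in both libraries in 27 cells, in EQ only in 13 and in EQ-75% only in 7. For CALCRL the numbers were 24, 8 and 8, and for APLNR 13, 10 and 9. S1PR1 was seen in both in 3 cells, in EQ only in 14 and in EQ-75% only in 6, and the cells not seen again had at most 2 counts. APLN was seen in both in 0 cells, in EQ only in 10 and in EQ-75% only in 2, and RAMP2 in 0, 1 and 1. These numbers also depend on how often each gene was detected in each library. The rho of the TB levels between the 2 libraries was 0.37 for CALCRL, 0.19 for APLNR and 0.04 for S1PR1. It was -0.01 for GNG11, -0.11 for APLN and -0.02 for RAMP2. Thus GNG11 did not keep the order of TB cells, although 27 cells held it in both.

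Levels of different genes were compared per kilobase of the canonical transcript in GENCODE 44. In EC the order was GNG11 (248.6 ± 122 CPM per kb, SD, n = 38 cells), APLNR (92.3 ± 74.8), CALCRL (78.0 ± 68.8), S1PR1 (39.4 ± 53.1), ADM (27.8 ± 48.5), APLN (25.1 ± 25.5), RAMP2 (24.7 ± 31.5) and S1PR3 (5.62 ± 6.24). GNG11 stood above APLNR by more than the SD between cells. Every other gene differed from the next in the order by less than its own SD. RAMP2, the partner protein, was thus below CALCRL on this scale. With the length of all annotated exons, APLN moved to place 4 and S1PR1 and ADM to places 5 and 6, and the other 5 genes kept their places.

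Within single EC cells, several parts of the 3 systems were present together. At a level of at least 20 CPM, EC cells held between 2 and 7 of the 8 genes, most often 5 (14 cells), and TB cells held at most 2 and in 31 of 48 cells none. No share of all genes at 20 CPM is given beside these counts, and 6 of the 8 genes were already called higher in EC. CALCRL and RAMP2 were both detected in 32 of 38 EC cells, and both reached 20 CPM in 11 cells, whereas CALCRL alone did so in 21 and RAMP2 alone in 3. The 3 cells with RAMP2 alone were EC 24, EC 27 and EC 38, all in the low CALCRL group. APLN and APLNR both reached 20 CPM in 26 cells, APLNR alone in 10 cells and APLN alone in 0. S1PR1 and S1PR3 both reached 20 CPM in 7 cells, S1PR1 alone in 15, S1PR3 alone in 5, and neither in 11.

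**Figure D2:**
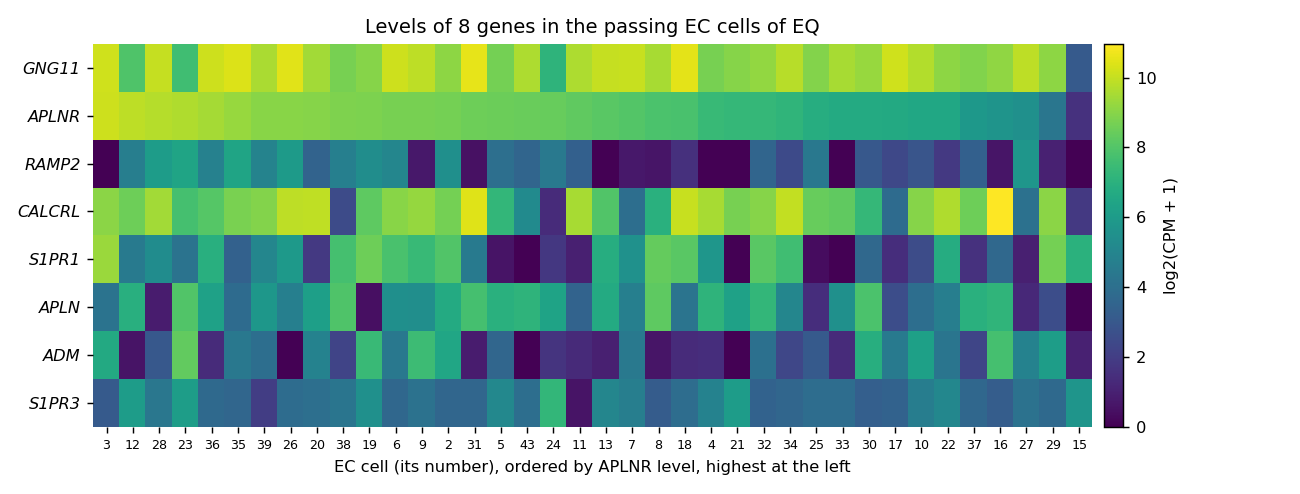
Levels of 8 genes, as log2(CPM + 1), in the 38 passing EC cells of EQ, 1 column per cell under its number, ordered by APLNR from the highest at the left. GNG11 is high in nearly all columns, RAMP2 and S1PR1 alternate between high and near 0, and EC 15 at the right end is low in GNG11, APLNR, CALCRL and APLN.

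Co-variation was described by Spearman's rho over the 38 EC cells of EQ, which came from 1 sample and 1 sequencing pool, so that rho is given with no p. The rho of the 8 genes with the total count of the cell lay between -0.24 and 0.20. Over the 28 pairs the median rho was -0.03, and 21 pairs were within 0.2 of 0. Only 2 pairs reached 0.4 in size. RAMP2 and APLNR rose together (rho = 0.49, 0.48 and 0.35, the last being 0.44 over the cells that also passed in EQ), and S1PR3 and GNG11 ran opposite (-0.49, -0.37 and -0.42). Without EC 15 these were 0.46 and -0.45 in EQ. S1PR3 and CALCRL also ran opposite in each experiment, at -0.33, -0.39 and -0.47, or -0.28 in EQ without EC 15.

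Ligands and receptors of the same system showed little co-variation. The rho of APLN and APLNR was 0.15, 0.12 and 0.12, or 0.08 in EQ without EC 15, but the Pearson correlation of log2(CPM + 1) was 0.35. That Pearson value includes EC 15, the lowest EC cell for both genes (0 and 1.99 CPM), and was not computed without it. For CALCRL and its partner RAMP2 the rho was -0.14, -0.15 and -0.12, and for ADM and CALCRL 0.06, 0.07 and -0.01. The S1P receptors S1PR1 and S1PR3 were at -0.16, -0.30 and -0.09.

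**Figure D3:**
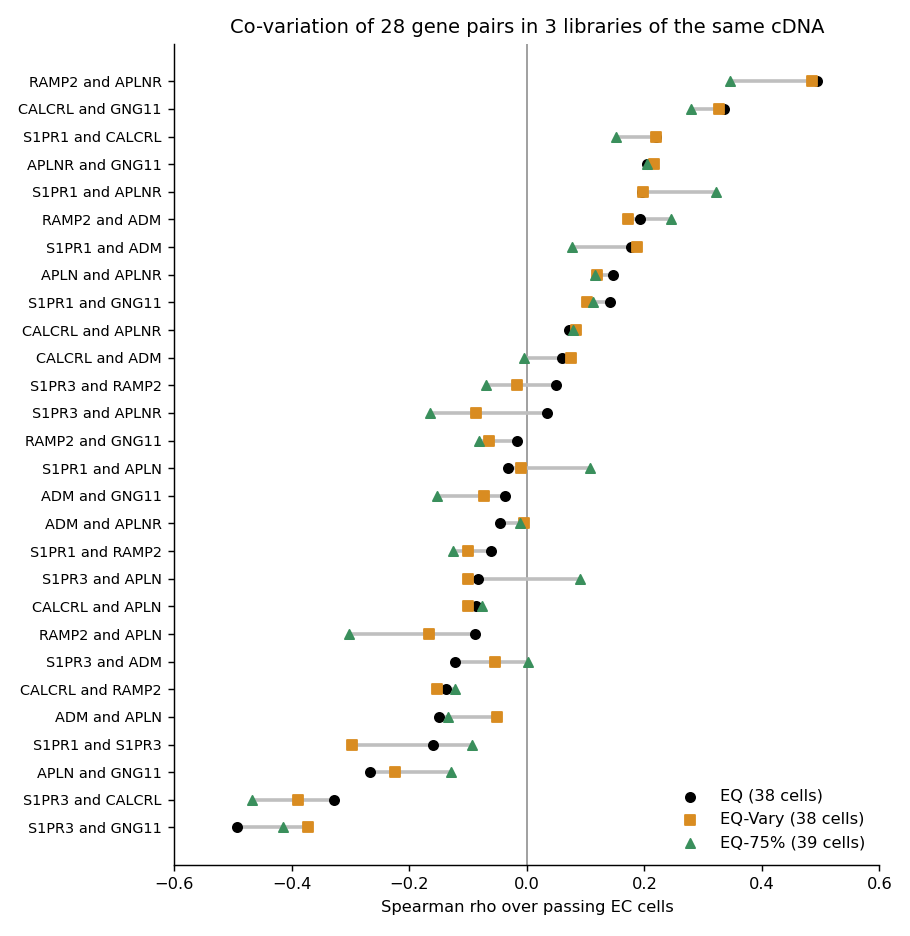
Spearman rho of the 28 pairs of 8 genes over passing EC cells, in EQ (circles), EQ-Vary (squares) and EQ-75% (triangles), with a grey bar over the range of the 3. RAMP2 and APLNR are at the top, S1PR3 and GNG11 at the bottom, and most pairs lie near 0.

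The genes most like each member over EC cells were taken among 8898 other genes detected in at least 50% of the cells. S1PR1 had 6 genes with rho of at least 0.5, or 0.0674% of those tested, led by the zinc finger gene ZMYM5 (0.76, 0.76 and 0.70), then SNX3 (0.59) and SLF2 (0.52). CALCRL had 0.157%, led by ITGA1, the alpha 1 integrin chain (0.62), CDC42BPA (0.61) and the sterol synthesis enzyme CYP51A1 (0.61). RAMP2 had 0.0674%, led by C12orf29 (0.66), FLOT1 (0.58) and DYRK1B (0.53). APLN had 0.27%, led by NUMA1 (0.64), MAGED4B (0.57) and MAGED4 (0.56), of which the last pair are near-identical copies whose reads cannot be assigned with certainty.

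APLNR had 0.045%, and its leading genes were CPOX (0.57), CYC1 (0.56) and PAM (0.53). PAM encodes the enzyme that amidates adrenomedullin and other peptides. Its rho with APLNR was 0.53 in EQ-Vary and 0.45 in EQ-75%, and with RAMP2 it was 0.46, 0.41 and 0.38 in the 3 experiments. GNG11 had 0.0787%, led by TCTEX1D2 (0.56) and PSMD3 (0.54). ADM had 0.247%, led by STX2 (0.60), RAPGEF6 (0.59) and AFMID (0.55). ADM was also compared over TB cells, where its mean was slightly higher, and there 0% of 9482 genes reached 0.5, with ATP11B (0.49), SGOL1 (0.48) and CTNNA1 (0.48) nearest.

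S1PR3 differed from the other members in the number of like genes, at 247 or 2.78%, led by NIT1 (0.72), KIAA1958 (0.71) and CCDC113 (0.70). Of these 247 genes, 57 reached 0.5 again in EQ-Vary, 25 in EQ-75% and 9 in both. For the other members the number reaching 0.5 again in EQ-75% was 2 of 6 for S1PR1, 3 of 6 for RAMP2, 5 of 22 for ADM, 3 of 14 for CALCRL, 3 of 24 for APLN, 0 of 4 for APLNR and 0 of 7 for GNG11. Of the 24 genes leading the 8 lists, 23 had a value in EQ-75%, where 22 were lower than in EQ and 5 reached 0.5, with a range of 0.22 (CYC1) to 0.70 (ZMYM5). All these genes were picked for a high rho in EQ, so lower values in another library follow in part from that choice. S1PR3 was also the member whose level repeated least between libraries.

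Several listed genes moved with S1PR3 over EC cells. The rho with the mean log2 level of 15 endothelial markers was -0.44, -0.29 and -0.30, with 7 pluripotency markers 0.46, 0.14 and 0.36, and with 4 blood markers 0.52, 0.39 and 0.29. Without EC 15 the EQ values were -0.41, 0.43 and 0.62. The rho of S1PR3 with 13 trophoblast markers was 0.42, 0.34 and 0.51, and with 10 hypoxia-responsive genes -0.43, -0.33 and -0.09. In EQ without EC 15 these were 0.38 and -0.42. Over TB cells, S1PR3 ran with the endothelial list (0.32, 0.34 and 0.28) and the pluripotency list (0.44, 0.46 and 0.35). There its rho was 0.52, 0.52 and 0.50 with 7 tip cell genes and 0.46, 0.55 and 0.36 with the blood list. The blood list includes PTPRC and SPN, which were found in both cell types alike (PTPRC in 35 of 38 EC and 47 of 48 TB cells, SPN in 34 and 42). The islet hormone gene IAPP had the same wide pattern (38 of 38 EC and 47 of 48 TB cells, means of 14.03 and 12.6 CPM), and its rho with S1PR3 was 0.52, 0.51 and 0.37. The part of these genes in the S1PR3 values was not tested.

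For ADM, a gene known to be induced by low oxygen, rho with the mean log2 level of 10 hypoxia-responsive genes over EC cells was 0.51, 0.40 and 0.35. Among them BNIP3 was at 0.51, 0.41 and 0.39 and the glucose transporter SLC2A1 at 0.34, 0.33 and 0.38, whereas LDHA was at 0.06, 0.07 and -0.01. Over TB cells the rho of ADM with the same list was 0.07, 0.05 and 0.08. RAMP2 had rho of 0.34, 0.33 and 0.42 with the hypoxia list over EC cells. Without EC 15 the EQ values were 0.49 for ADM and 0.32 for RAMP2.

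APLN ran opposite to DLL4, the Notch ligand of sprouting tip cells, with rho of -0.44, -0.47 and -0.47. RAMP2 rose with DLL4 (0.48, 0.51 and 0.50), but its rho with the whole list of 7 tip cell genes was 0.11, 0.10 and 0.17. The rho of APLN with the whole list of 7 tip cell genes was -0.25, -0.20 and -0.25. With the trophoblast list it was 0.36, 0.37 and 0.37, or 0.45 in EQ without EC 15. GNG11 ran opposite to the mean log2 level of 13 trophoblast markers over EC cells (-0.48, -0.45 and -0.55), and CALCRL ran opposite to POU5F1 (-0.44, -0.33 and -0.37). Without EC 15 the EQ values were -0.53 for APLN with DLL4, 0.45 for RAMP2 with DLL4, -0.44 for GNG11 with the trophoblast list and -0.39 for CALCRL with POU5F1.

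The other genes of these pathways were taken from 5 fixed lists of 70 genes, of which 61 were in the tables and 57 passed the filter of 1 CPM. Of the 57, 15 (26.3%) were at least 4-fold higher in EC and 4 (7.02%) at least 4-fold higher in TB, beside 10.8% and 16% of all genes. Leaving out the highest cell of the higher type for each gene, a setting chosen after seeing the data, left 13 at least 4-fold higher in EC and 4 in TB. The calls lost were PLPP2 (2.71-fold without EC 15) and ARRB2 (3.05-fold without EC 8). The fold moved by over 1.5 times in 7 genes, these 2 and SPHK2 (16.8 without TB 40), CALCA (11.7 without EC 24), GRK5 (51.5 without EC 17), RAPGEF4 (13.6 without EC 32) and ADCY4 (23.5 without EC 25). In the S1P list, 2 of 12 genes were higher in EC and 3 of 12 in TB. The S1P exporter SPNS2 was 7.68-fold higher in EC (21.98 ± 44.02 against 2.86 ± 8.08 CPM), and PLPP2 was 4.57-fold higher in EC but found in only 8 EC and 4 TB cells. The S1P-forming kinases were higher in TB, SPHK1 5.16-fold and SPHK2 38.8-fold (found in 2 EC and 18 TB cells), as was the S1P phosphatase SGPP1 (15.5-fold, found in 12 of 38 EC and 44 of 48 TB cells). The 3 listed genes named for their EC mean were SGPL1, the lyase that degrades S1P (192 and 121 CPM in EC and TB), the receptor S1PR2 (87.3 and 73.3 CPM) and ASAH1 (83.1 and 200.5 CPM), and none of the 3 reached 4-fold.

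In the adrenomedullin list, RAMP1 had the largest ratio and ran opposite to RAMP2. RAMP1 was found in 28 of 48 TB cells at a mean of 36.5 ± 78.6 CPM and in 4 of 38 EC cells at 0.0683 ± 0.252 CPM, a ratio of 535 in favour of TB. CALCRL and RAMP1 both reached 20 CPM in 0 EC cells and in 1 TB cell. CALCA, which encodes the peptide CGRP, was 31.4-fold higher in EC on the strength of 5 EC and 3 TB cells. PAM (58.9 and 47.1 CPM), CRCP (58.8 and 49 CPM) and IAPP did not reach 4-fold. In the apelin list, ECE1, an endothelin-converting protease, was 6.68-fold higher in EC (86.4 ± 96.3 against 12.9 ± 25.1 CPM), while FURIN (41.4 and 19.997 CPM) and ECE2 (13.1 and 26.4 CPM) did not reach 4-fold.

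**Figure D4:**
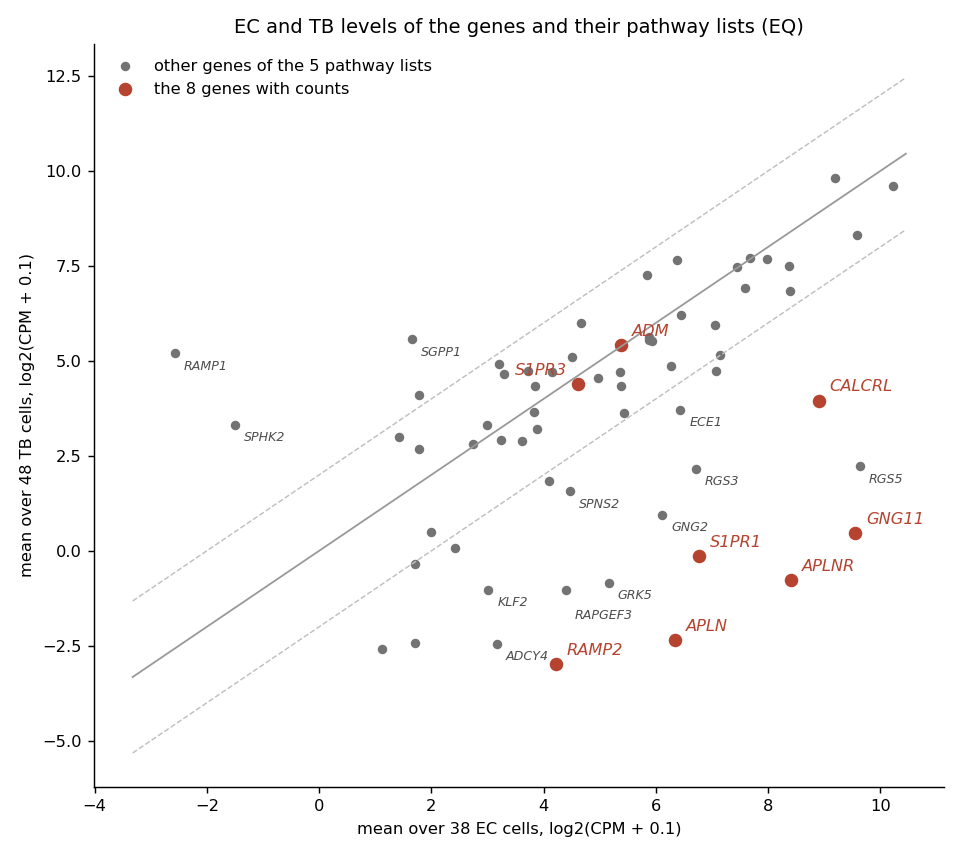
Mean over 38 EC cells (horizontal) and 48 TB cells (vertical) of EQ, as log2(CPM + 0.1), for the 8 genes with counts (red) and the 57 other genes of the 5 lists (grey). The solid line marks equal levels and the dashed lines 4-fold. S1PR1, CALCRL, RAMP2, APLN, APLNR and GNG11 lie below the lower dashed line, ADM and S1PR3 lie on the solid line, and RAMP1 lies at the upper left.

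In the list of G protein subunits and regulators, 7 of 21 genes were at least 4-fold higher in EC and none in TB. RGS5, a regulator that shortens G protein signalling and is also a mural cell marker, was 174-fold higher in EC (794 ± 418 against 4.56 ± 10.2 CPM). Of the other smooth muscle and mural markers tested, TAGLN was 11.7-fold higher in TB, and ACTA2, CNN1, MYH11 and PDGFRB did not reach 4-fold. GRK5, a kinase that desensitizes receptors, was 77.7-fold higher in EC, the gamma subunit GNG2 37.6-fold and RGS3 23.97-fold. The inhibitory subunit GNAI2 was 5.09-fold higher in EC, and the arrestins ARRB2 (found in 15 EC and 4 TB cells) and ARRB1 5.52-fold and 4.90-fold. GNAI3 (767 and 318 CPM) and GNAS (584 and 898 CPM) were abundant in both. In the list of downstream genes, 4 of 13 were higher in EC. These were ADCY4 (106-fold, found in 14 of 38 EC cells), RAPGEF3 (54.4-fold), which links cyclic AMP to RAP1, its relative RAPGEF4 (36.8-fold, 11 cells) and the flow-responsive factor KLF2 (20.4-fold, 21 cells). RHOA, RAP1B and RAC1 had the highest EC means of that list and did not reach 4-fold.

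The new libraries of the same cDNA gave nearly the same values cell by cell. The repeated share, which is the part of the variance of log2(CPM + 1) between EC cells that 2 libraries have in common, was 0.986 for S1PR1, 0.986 for CALCRL, 0.983 for APLN, 0.983 for GNG11, 0.979 for APLNR, 0.978 for ADM, 0.947 for RAMP2 and 0.888 for S1PR3 between EQ and EQ-75% (37 cells). The median over all 11485 genes with a mean of at least 1 CPM was 0.960. Thus S1PR3 and RAMP2 were below that median and the other 6 genes above it. S1PR3 also kept the order of cells least, with a rho of 0.69 between the 2 libraries against 0.94 to 0.98 for the others. Between EQ and EQ-Vary the shares were 0.934 for S1PR3 and 0.973 to 0.998 for the other 7.

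**Figure D5:**
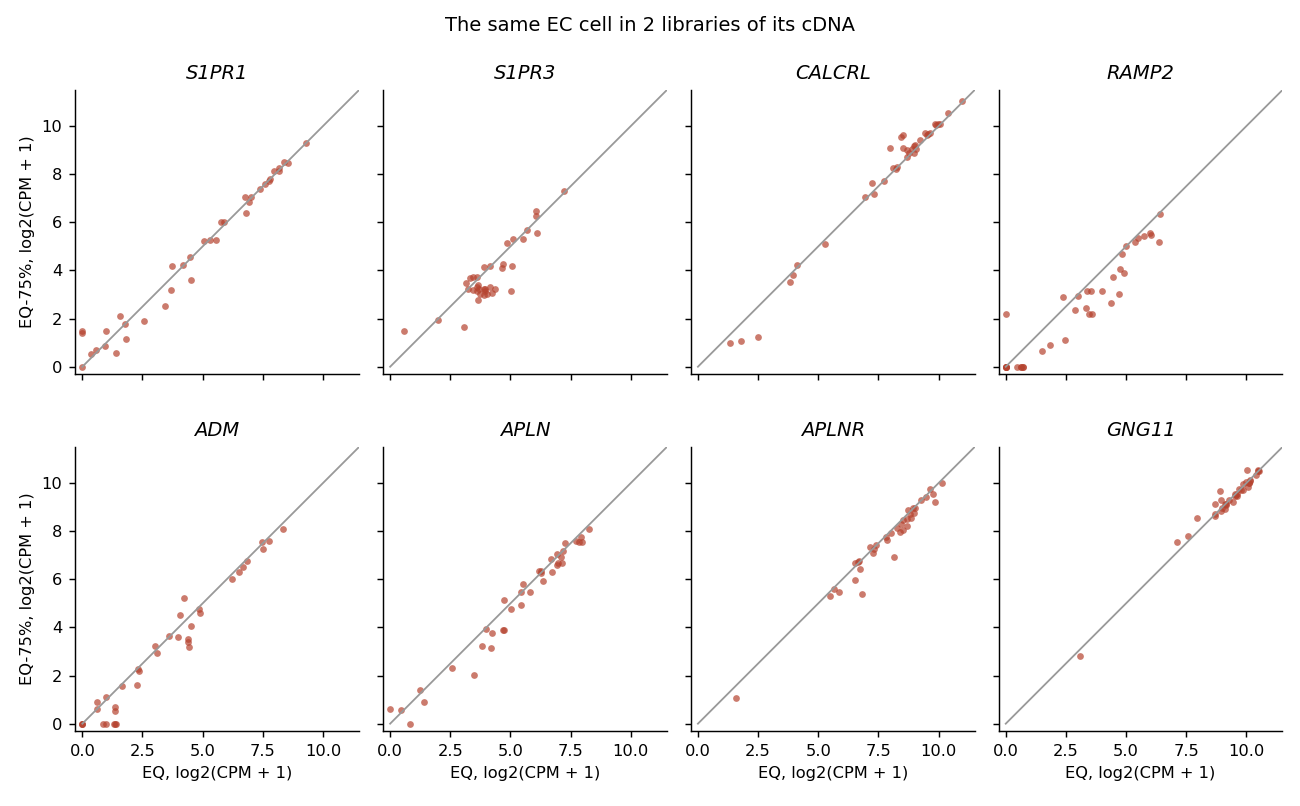
The same EC cell in EQ (horizontal) and EQ-75% (vertical), as log2(CPM + 1), for 8 genes in the 37 cells that passed in both, with the line of equal values. S1PR3 shows a dense cloud off the line, RAMP2 lies mostly below it, and the 3 cells lowest in CALCRL stay low in both.

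Levels shifted slightly between EQ and EQ-75%, and not equally. Over all genes the median shift in EC was -0.12 on the log2(CPM + 1) scale, with -0.41 and 0.13 at the 5% and 95% points of all genes. RAMP2 was lower in EQ-75% in 29 of 37 cells by a mean log2 shift of -0.49 ± 0.69 (SD), which was beyond that range. S1PR3 (-0.35 ± 0.59) and ADM (-0.32 ± 0.54) were lower within it, CALCRL was higher in 27 of 37 cells (0.11 ± 0.43), and GNG11 (0.04 ± 0.24) and S1PR1 (0.01 ± 0.50) had shifts near 0. Detection changed little. RAMP2 was seen in 26 cells in both, in 5 in EQ only and in 1 in EQ-75% only, and no cell seen in EQ only had more than 1 RAMP2 count.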

How the data were processed

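The genes and lists were chosen with earlier results of these data known. The values were expected counts of 17492 genes in 288 libraries, which the authors made by trimming reads, mapping them with Bowtie 1.2.3 (GRCh38, protein-coding genes of Ensembl), and estimating with RSEM 1.2.31, and which they deposited without normalization. No sample column was left unused (0). Sample groups were taken from the labels.

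Expected counts were rounded and divided by the total of each cell to give CPM, so a value depends on all other genes of that cell. Cells outside the limits of the methods (log10 total of 5.4, 31% in the top 50 genes) were left out. A gene was called different at a ratio of mean CPM of 4, and detected at a count of 1. Median totals of passing cells ran from 1499256 to 2025137 in the 6 groups. Correlations were Spearman's rho, computed with numpy 2.4.6, pandas 2.3.3 and scipy 1.17.1 in Python 3.11.15, and the scripts were tested on simulated data. Alternatives used scran 1.30.0 and edgeR 4.0.16 (TMM) in R 4.3.3. Ratio intervals are exact binomial limits for the summed counts, shifted onto the ratio of mean CPM, and share intervals are Clopper-Pearson (95%). Coordinates and lengths are from GENCODE 44 on GRCh38. The named genes were the 9 genes, the 3 genes with the highest rho to each, and from each list the 3 with the highest EC mean and those past 4-fold. Of these, 1 gene is not reported here. CDH5, KDR, DLL4 and other markers outside that rule were named from the marker lists after their values were seen. The marker lists for mesoderm, smooth muscle and mural cells, and mitosis gave rho with the genes between -0.28 and 0.26 over EC cells of EQ.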

Additional observations from a re-analysis of the deposited data

Results flagged for a closer look

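The 7 EC libraries of EQ that failed the limits on total count or on the most abundant genes enter only the values given for all cells. Of the genes, 4 stood out in them. Pooled over the 7 libraries, RAMP2 was at 10.5 CPM (10 counts), APLN at 42.1 CPM (40 counts), APLNR at 48.5 CPM (46 counts) and GNG11 at 356 CPM (338 counts), each above the highest passing TB cell of EQ. These levels were below those pooled over the passing EC cells, at 18.5 CPM for RAMP2, 77.6 for APLN, 339 for APLNR and 758 for GNG11. The 3 TB libraries that failed the limits were also above the highest passing TB cell for APLNR (14.97 CPM from 1 count) and GNG11 (29.9 CPM from 2 counts). ADM was at 3.16 CPM (3 counts) and RAMP3 at 0 in the 7 EC libraries.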

How the results depend on the processing

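Without EC 15 or without TB 14 and TB 16, settings chosen after seeing the data, and with all cells, scran or TMM scaling, or no filter on mean CPM, the number of genes at least 4-fold higher in EC was 6 each time. The median log2 ratio of the 8 genes was 8.14. The medians of the lower and upper counting limits of the 8 genes were 7.18 and 8.43 on the log2 scale. The median ratio lay outside them with all cells (6.90) and without TB 14 and TB 16 (8.97). With all cells the ratio fell most for APLNR (111), GNG11 (216) and CALCRL (22.2). Pairs with rho of at least 0.4 in size numbered 2 in EQ, 4 by Pearson correlation of log2(CPM + 1) and 1 in EQ-Vary. APLN and GNG11 had a rho of -0.27 and a Pearson correlation of 0.13. EC 15 was the lowest EC cell for both genes (0 and 7.47 CPM). The Pearson values and their count of 4 pairs include EC 15 and were not computed without it. With the length of all exons, 5 of 8 genes kept their place. The other 29 summary values were within the stated limits, as were 358 single values while 65 were not, and no called value changed sign. No test was made, paired or not, and the differences between libraries of the same cell, which were matched by cell, are descriptions. Depth limits RAMP2 and APLN in TB, with 2 and 10 counts in all.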
